A study of Mus musculus with 10 samples.

Results

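The genes described here are 45 homeobox transcription factor genes outside the Hox clusters, in 13 families: the family of Six2 to Six6, and the families Dlx, Irx, Nkx, Otx, Gbx, Emx, En, Msx, Pitx, Barhl, Cdx and Tlx. They were taken by name from the 22380 protein-coding genes of the annotation. The rule uses no measured value, but the list was drawn up with earlier results of these data known, so its counts are a description. For each gene, the called ChIP-seq peaks within 5 kb of any of its transcriptional start sites (TSS) and over its body were collected from 6 peak lists. ChIP-seq was performed on e14.5 mouse fetal liver (FL) cells sorted into CD71+Ter119-/lo pro-erythroblasts and CD71+Ter119high erythroblasts. H3K27me3 was measured in both fractions of WT (Pcl2+/+) and Mtf2-null (Pcl2-/-) embryos, and Mtf2, also named Pcl2, was measured in both fractions of WT embryos. There was 1 ChIP library per condition, 6 in all, with 4 IgG control libraries, so no test between conditions could be made and every comparison below is a description. The null allele came from gene-targeted C57Bl/6 ES cells aggregated with CD1 blastocysts, and after germline transmission breeding kept the C57Bl/6 background. The allele is constitutive, so Mtf2 was missing from every tissue of the embryo and not from erythroid cells alone. The number of embryos behind each library was not given in the sources used here. Each sample held 500000 cells.

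Polycomb repressive complex 2 (PRC2) trimethylates lysine 27 of histone H3, and the mark, H3K27me3, is found at silent genes. Mtf2 is an accessory protein of PRC2 that binds CpG-rich DNA. Homeobox genes set the identity of organs and body regions in the embryo, most are silent outside their own tissue, and they are among the classic Polycomb targets of embryonic stem cells.

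The bases under the peaks are shown first for the summits on which the results below turn. Each line gives 201 bases centred on the summit, read 5′ to 3′ on the strand of the gene from the NCBIM37 genome (the assembly of mm9), with every CG dinucleotide in capitals. Gbx1 had the highest fold enrichment of all 45 genes. Tlx1 was CpG-poor at the most upstream of its TSS, with a CpG-rich peak inside the gene. Dlx2 had a peak in WT erythroblasts and another in Mtf2-null pro-erythroblasts. Cdx2 had peaks in WT pro-erythroblasts and none in erythroblasts, and Nkx2-6 had the peak with the fewest CpGs shown here.
Gbx1, WT erythroblast summit (chr5:24032147-24032347, minus strand): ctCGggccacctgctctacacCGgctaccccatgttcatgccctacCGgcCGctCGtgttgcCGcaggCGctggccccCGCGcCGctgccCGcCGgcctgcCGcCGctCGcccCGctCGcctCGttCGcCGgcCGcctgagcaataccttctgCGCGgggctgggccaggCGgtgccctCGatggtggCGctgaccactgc
Tlx1, WT erythroblast summit (chr19:45225598-45225798, plus strand): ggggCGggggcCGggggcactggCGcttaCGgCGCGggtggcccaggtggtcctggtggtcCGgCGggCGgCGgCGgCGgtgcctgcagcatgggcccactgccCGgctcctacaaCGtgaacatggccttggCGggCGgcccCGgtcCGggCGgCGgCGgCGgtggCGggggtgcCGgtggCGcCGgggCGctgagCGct
Dlx2, WT erythroblast summit (chr2:71382656-71382856, minus strand): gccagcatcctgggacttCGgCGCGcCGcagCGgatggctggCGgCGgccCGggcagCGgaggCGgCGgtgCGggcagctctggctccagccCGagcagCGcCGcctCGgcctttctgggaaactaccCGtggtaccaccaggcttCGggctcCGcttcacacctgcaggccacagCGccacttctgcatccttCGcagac
Dlx2, Mtf2-null pro-erythroblast summit (chr2:71380307-71380507, minus strand): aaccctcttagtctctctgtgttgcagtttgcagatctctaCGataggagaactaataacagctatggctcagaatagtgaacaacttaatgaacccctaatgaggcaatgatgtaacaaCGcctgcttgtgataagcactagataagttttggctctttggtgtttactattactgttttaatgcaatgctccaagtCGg
Cdx2, WT pro-erythroblast summit (chr5:148118222-148118422, minus strand): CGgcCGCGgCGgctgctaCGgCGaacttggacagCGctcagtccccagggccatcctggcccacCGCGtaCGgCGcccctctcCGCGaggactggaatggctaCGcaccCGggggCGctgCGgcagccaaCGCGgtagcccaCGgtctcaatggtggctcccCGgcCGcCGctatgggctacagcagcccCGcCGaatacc
Nkx2-6, WT erythroblast summit (chr14:69792153-69792353, plus strand): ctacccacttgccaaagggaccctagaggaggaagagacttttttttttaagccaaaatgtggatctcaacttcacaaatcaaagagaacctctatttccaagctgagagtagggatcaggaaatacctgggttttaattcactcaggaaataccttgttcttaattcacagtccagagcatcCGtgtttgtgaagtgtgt

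The stretches at Gbx1, Tlx1, Dlx2 in WT erythroblasts and Cdx2 held 26, 28, 21 and 25 CpGs and 75.1%, 81.1%, 71.6% and 72.6% GC, and each lay in a coding exon. The Mtf2-null summit at Dlx2 lay downstream of the gene and held 3 CpGs at 40.3% GC. The summit at Nkx2-6 lay in an intron and held 1 CpG at 41.3% GC.

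Depth differed between the libraries. The peak caller used between 15669899 and 67169672 unique tags per ChIP library, and the lists held between 1407 and 28918 peaks. The Mtf2-null H3K27me3 libraries were 1.95 times as deep as WT in pro-erythroblasts and 2.23 times as deep in erythroblasts. As a check of the sorted fractions, 1 of 15 erythroid marker genes had an H3K27me3 peak near a TSS in either WT list, the cytoskeletal gene Ank1, and none had one in a Mtf2-null list. Of 15 matched markers of hepatocytes, myeloid, lymphoid and stromal cells, 2 had a WT erythroblast peak, Cebpa and Pdgfra. A peak reads the mark and not expression, so the purity of the sort and the loss of Mtf2 could not be checked from these lists.

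In WT erythroblasts, 37 of the 45 homeobox genes had an H3K27me3 peak within 5 kb of a TSS (82.2%, 95% Wilson interval 68.7 to 90.7), compared with 11.5% of all protein-coding genes. Over the gene body the count was 34 of 45 (75.6%) against 11.5% of all genes, with 9 in WT pro-erythroblasts (against 5.0%), 1 in Mtf2-null pro-erythroblasts (2.22%, against 2.37%) and 0 in Mtf2-null erythroblasts (against 4.22%). Body shares depend on gene length, which was not matched. In WT pro-erythroblasts 13 genes had a peak near a TSS (28.9%, 17.7 to 43.4) against 3.28% of all genes. In Mtf2-null pro-erythroblasts 2 genes had one, Dlx2 and Nkx2-5 (4.44%, 1.23 to 14.8), against 1.27%. In Mtf2-null erythroblasts the count was 0 of 45, which allows a share of up to 6.67%, against 1.63% of all genes. The Mtf2 lists gave 0 of 45 in both fractions, with the same limit of 6.67%. Of all genes, 8.44% were called in pro-erythroblasts and 1.51% in erythroblasts, so the erythroblast count is near its background. Thus the WT H3K27me3 lists, and above all that of erythroblasts, held nearly all the peaks at these genes, while with 1.63% of all genes called in Mtf2-null erythroblasts, 0 of 45 is near the background of that list. Intervals cover counting error only, and neighbouring genes are not independent. A mark in fewer of the sorted cells and a weaker mark in each cell cannot be told apart.

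**Figure D1:**
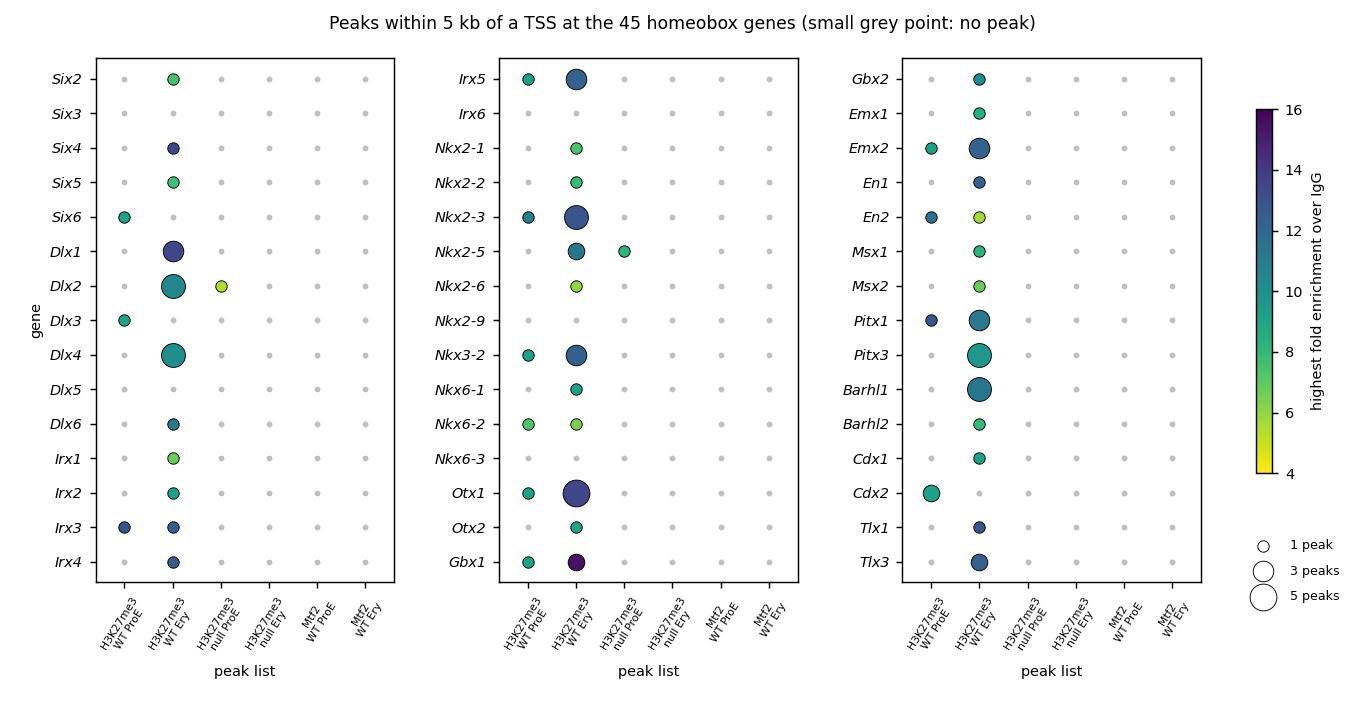
Peaks within 5 kb of a TSS at each of the 45 genes (rows) in the 6 peak lists (columns, ProE for pro-erythroblasts and Ery for erythroblasts, 1 library each). Circle size gives the number of peaks and colour the highest fold enrichment over IgG. The WT erythroblast column is filled at 37 genes and the WT pro-erythroblast column at 13, the Mtf2-null pro-erythroblast column holds 2 circles, and the last 3 columns hold none.

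The 37 genes carried 69 distinct WT erythroblast peaks. Their deposited tag counts ran from 21 to 156 with a median of 42.0, and their fold enrichments over IgG ran from 4.47 to 15.4 with a median of 8.98. They were between 607 and 2977 bp long, and 29 of the 69 covered a TSS. Summits lay in a coding exon for 21 peaks, in a UTR for 16, in a non-coding exon for 2, in an intron for 10, upstream of the gene for 14 and downstream for 6. In 23 genes there was 1 peak, in 14 there were 2 or more, and Otx1 had the most with 5. By comparison, 37.8% of the called homeobox genes had 2 or more peaks, against 19.9% of the 2581 protein-coding genes called in this list, and the median of the highest fold per gene was 10.3 against 8.98. The summit of that peak lay downstream of the TSS at 81.1% of the homeobox genes and 62.2% of all called genes. The share with a peak over a TSS was alike, 70.3% against 68.6%.

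**Figure D2:**
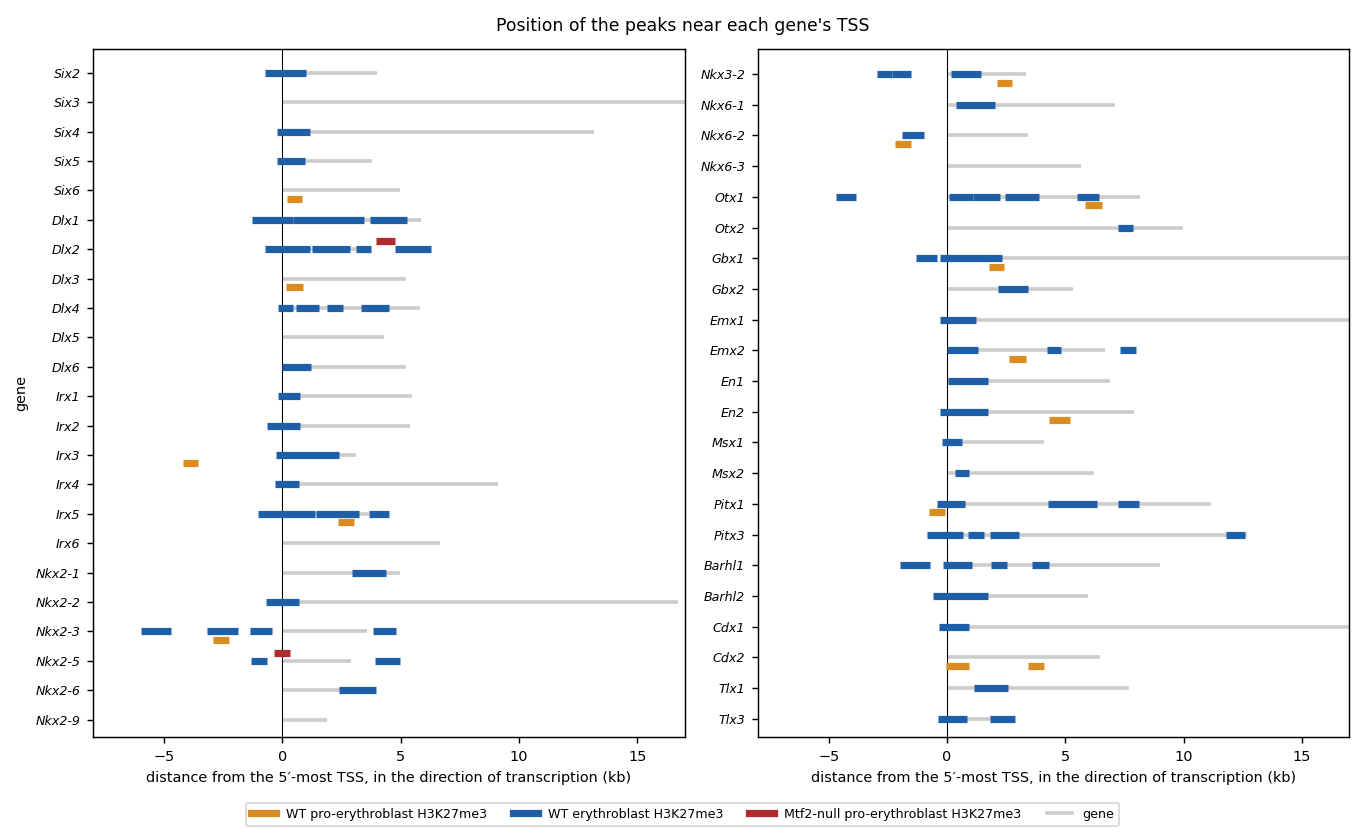
Position of each peak near a TSS (coloured bars) along the gene (grey line), as the distance in kb from the most upstream TSS in the direction of transcription, with genes in rows. WT erythroblast peaks sit at or just downstream of the start in most rows. WT pro-erythroblast peaks are mostly shorter and lie beside or overlap them, except at Six6, Dlx3 and Cdx2, which have no WT erythroblast peak. The 2 Mtf2-null pro-erythroblast peaks are at Dlx2 and Nkx2-5.

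The genes Six2 to Six6 act in muscle, kidney, eye and forebrain, and 3 of the 5 had a WT erythroblast peak. The highest fold was at Six4, a gene of the muscle program, where 1 peak over the TSS (chr12:74213251-74214639) held 61 tags at 13.35-fold, with its summit in a coding exon. Six2, which maintains kidney progenitors, had 78 tags at 7.55-fold, and Six5 had 42 tags at 7.7-fold. None of these 3 genes had a peak in the other 5 lists. The eye gene Six6 showed the other order of stages, with 1 WT pro-erythroblast peak of 16 tags at 9.14-fold in an intron and no erythroblast peak within 5 kb. The nearest WT erythroblast peak to a Six6 TSS was 5.31 kb away, just beyond the window, with 40 tags at 7.67-fold. Six3, needed for the forebrain and eye, had no peak near a TSS in any list, and its nearest WT erythroblast peak was 66.2 kb away.

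Dlx genes lie as pairs and pattern the forebrain, jaws and limbs. WT erythroblast peaks were found at 4 of the 6, which together carried 12. At Dlx1 there were 3, with 63, 107 and 54 tags at 8.56-fold, 13.48-fold and 7.19-fold, the strongest of them in a UTR and 2977 bp long, the longest peak of the set (chr2:71366634-71369610). At its neighbour Dlx2 there were 4, with 58, 26, 78 and 93 tags at 7.34-fold, 10.27-fold, 10.43-fold and 5.67-fold. Both genes act in forebrain interneurons. Within 5 kb of the pair's outer ends, 8 WT erythroblast peaks covered 13.0 kb of 28.6 kb. Dlx4 had 4 peaks, the strongest with 39 tags at 10.11-fold, and Dlx6 had 1 with 43 tags at 11.23-fold. Dlx3, a gene of skin, hair and teeth, had 18 tags at 9.14-fold in WT pro-erythroblasts and no erythroblast peak, and Dlx5 had no peak in any list.

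Irx genes form the Iroquois groups that act in heart, limb and neural patterning, and 5 of 6 had a WT erythroblast peak. Irx3 had 1 of 116 tags at 12.35-fold over its TSS and coding sequence (chr8:94323164-94325840), and 1 WT pro-erythroblast peak of 16 tags at 12.79-fold with its summit 4147 bp upstream of the TSS. Irx5 had 3 in WT erythroblasts, with 105, 96 and 30 tags at 12.28-fold, 10.27-fold and 6.74-fold. The WT pro-erythroblast peak at Irx5, of 17 tags at 9.14-fold, lay inside the second of these (chr8:94883094-94884936), in a coding exon. Irx4, a gene of the heart ventricle, had the highest WT erythroblast fold of the family, 12.63-fold, from 33 tags. Irx1 and Irx2 had 29 tags at 6.74-fold and 57 tags at 9.24-fold. Irx6 had no peak in any list, and its nearest WT erythroblast peak was 309 kb away, the farthest of the 8 genes without one.

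Nkx genes act in heart, thyroid, spleen, pancreas and the ventral neural tube, and 8 of 10 had a WT erythroblast peak. Nkx2-3, which acts in spleen and gut, had 4, with 42, 45, 32 and 48 tags, the strongest at 12.84-fold downstream of the gene (chr19:43690645-43691596), and none of them reached the gene itself. It also had a WT pro-erythroblast peak of 17 tags at 10.96-fold, upstream of the gene. Nkx3-2, a gene of the axial skeleton and spleen, had 3 in WT erythroblasts, with 42, 27 and 22 tags at 10.11-fold, 12.35-fold and 8.98-fold, and 1 in WT pro-erythroblasts with 16 tags at 9.14-fold in a coding exon. At Nkx6-2, a gene of oligodendrocytes, 29 tags at 6.42-fold in WT erythroblasts and 16 tags at 7.31-fold in WT pro-erythroblasts had summits 1607 and 1608 bp upstream of the TSS, 1 base apart. The heart gene Nkx2-5 had WT erythroblast peaks of 37 tags at 11.3-fold downstream of the gene and 24 tags at 6.7-fold upstream, with none over its TSS. Nkx2-1, Nkx2-2, Nkx2-6 and Nkx6-1 had 1 peak each, with 47 to 74 tags at 5.99-fold to 9.16-fold. Nkx2-9 and Nkx6-3 had no peak near a TSS in any list.

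The Otx, Gbx, Emx, En and Barhl genes, which pattern the brain, were all called in WT erythroblasts, 10 of 10 genes. Only Otx1, Gbx1, Emx2, En1, En2 and Barhl2 had a peak with a false discovery rate (FDR) of at most 5%. Otx2 rested on 1 peak of 23 tags at 8.98-fold with an FDR of 19.15%. Gbx1, a gene of the hindbrain and spinal cord, had the strongest peak of the 45 genes (chr5:24030761-24033391), with 156 tags at 15.4-fold, an FDR of 1.79% and rank 56 by score among all 4490 peaks of the list. Its WT pro-erythroblast peak held 16 tags at 9.14-fold and overlapped the 3′ end of that peak in an intron. Otx1 had 5 peaks in WT erythroblasts, with 27 to 57 tags at 5.61-fold to 13.48-fold, and its WT pro-erythroblast peak of 17 tags at 9.14-fold overlapped the most downstream of them. Emx2, which acts in cortex and the urogenital tract, had 3 with 54, 22 and 23 tags, the first at 12.32-fold over its TSS, and a WT pro-erythroblast peak of 17 tags at 9.14-fold between the first and the second. En1 had 72 tags at 12.35-fold in a coding exon. En2, which acts with it at the boundary of midbrain and hindbrain, had more tags, 101, at a lower fold, 5.65, and a separate WT pro-erythroblast peak of 20 tags at 11.7-fold in a coding exon toward its 3′ end. Barhl1 had 4 peaks, the highest by fold with 41 tags at 11.3-fold and the highest by tags with 50 at 8.56-fold.

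Both Msx, both Pitx and both Tlx genes and 1 of the 2 Cdx genes were called in WT erythroblasts. Msx1, a craniofacial gene, had 34 tags at 8.22-fold over its TSS, and Msx2 had 21 tags, the fewest of any peak in the list. Pitx1, which specifies the hindlimb, had 3 with 31, 80 and 40 tags at 11.23-fold, 11.23-fold and 8.22-fold, and a WT pro-erythroblast peak of 17 tags at 12.79-fold that overlapped the most upstream of them. Tlx1, needed for the spleen, had 66 tags at 12.84-fold (chr19:45224846-45226283), and Tlx3 had 38 and 47 tags at 12.32-fold and 9.24-fold. The Cdx genes, which pattern the gut and the posterior body, split by stage. Cdx1 had 1 WT erythroblast peak of 52 tags at 9.24-fold and none in WT pro-erythroblasts. Cdx2 had 2 WT pro-erythroblast peaks, of 22 tags at 9.14-fold over its TSS and 16 tags at 7.31-fold in an intron, and its nearest WT erythroblast peak was 93.4 kb away.

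Between the WT fractions, 10 genes had a peak near a TSS in both (22.2%, against 1.66% of all genes), 27 in erythroblasts only and 3 in pro-erythroblasts only (Six6, Dlx3 and Cdx2, 6.67% against 1.62%). The 10 were Irx3, Irx5, Nkx2-3, Nkx3-2, Nkx6-2, Otx1, Gbx1, Emx2, En2 and Pitx1. At 6 of these 10 the peaks of both fractions shared at least 1 base (60.0%), as at 66.4% of the 372 genes called in both fractions. The 14 WT pro-erythroblast peaks were all close to the calling limit. They held 16 to 22 tags, where 16 was the fewest in the list, at FDR values of 10.02% to 14.77%, and 8 of the 14 had the same fold, 9.14. None had an FDR of at most 5%, as did only 1 of all 4992 peaks of that list, whereas 27 of the 69 WT erythroblast peaks at these genes and 1312 of all 4490 did. The WT erythroblast library was 1.59 times as deep. Scaled to the pro-erythroblast depth, the peak with the most tags at each of the 27 genes held between 13.2 and 67.5 tags, and at 25 of the 27 it held at least 16. The part of depth and of the separate IgG libraries in the difference between stages was not tested.

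All 37 genes with a WT erythroblast peak lacked one in Mtf2-null erythroblasts, near a TSS and over the gene body. Across all genes, 2549 had a WT erythroblast peak and no Mtf2-null one (11.4%), which is nearly all of the 2581 called in WT, so the homeobox genes shared this with the rest of the list. Absence from a list is not a measured absence of the mark. The Mtf2-null library was the deeper one, and scaled to its depth the peak with the most tags at each gene held between 46.9 and 349 tags, while the smallest peak called there held 35. This scaling leaves out the separate IgG libraries, and the part of depth and of IgG in the missing calls was not tested. The Mtf2-null erythroblast list was not empty, with 5791 peaks, but 0 of its summits lay in CpG island-like sequence, compared with 47.6% of all summits in the WT erythroblast list. The part of a difference in base composition between the libraries was not tested. The closest that any of its peaks came to a TSS of the 45 genes was 8.60 kb, at Otx2. The median distance was 217 kb, compared with 226 kb for all genes.

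In Mtf2-null pro-erythroblasts, all 13 genes called in WT pro-erythroblasts lacked a peak, as did 695 of the 734 protein-coding genes called there (3.11% of all genes), so the homeobox genes shared this too. In turn, both genes with a Mtf2-null pro-erythroblast peak, Dlx2 and Nkx2-5, had none within 5 kb of a TSS in WT pro-erythroblasts. The nearest WT pro-erythroblast peak was 6.10 kb from the TSS at Nkx2-5, just beyond the window, and 174 kb away at Dlx2. The Dlx2 peak (chr2:71380077-71380839) held 29 tags at 5.47-fold with its summit 3600 bp downstream of the TSS, in a gap between WT erythroblast peaks. The Nkx2-5 peak (chr17:26978209-26978879) held 25 tags at 8.2-fold over the TSS, where WT erythroblasts had no peak. Both had an FDR of 100%, as every peak of that list did.

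**Figure D3:**
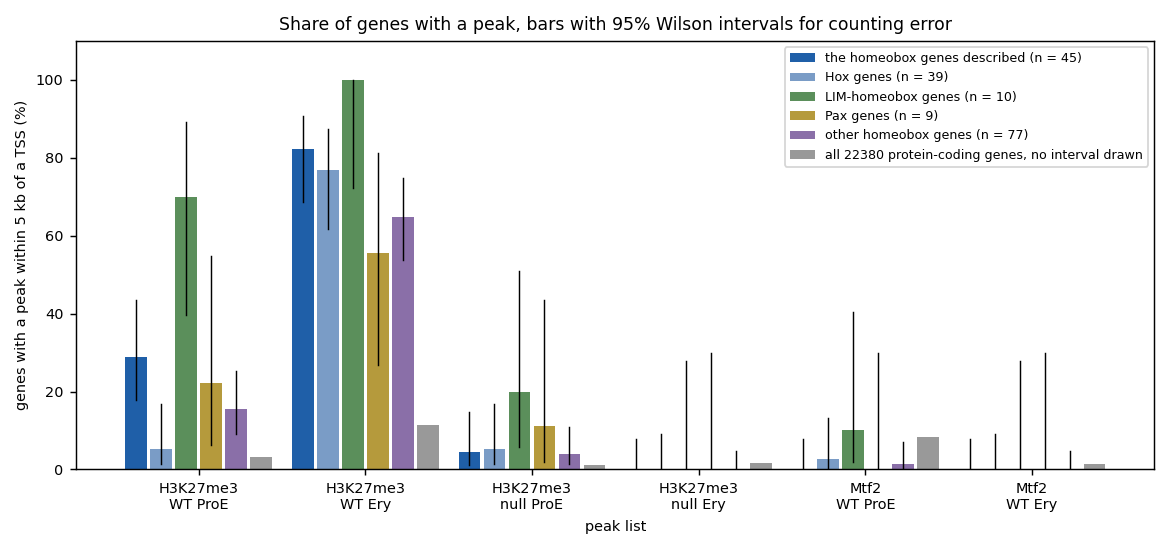
Share of genes called within 5 kb of a TSS (y axis, %) in each of the 6 lists, for the homeobox genes described, 4 other homeobox groups and all protein-coding genes. Black lines are 95% Wilson intervals for counting error. In WT erythroblasts the blue bar reaches 82.2% against 11.5% of all genes, and in Mtf2-null erythroblasts and both Mtf2 lists it is 0.

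Set beside other homeobox groups, the share in WT erythroblasts was 76.9% of 39 Hox genes, 100% of 10 LIM-homeobox genes, 55.6% of 9 Pax genes and 64.9% of 77 other homeobox genes. The interval of the 45 genes, 68.7 to 90.7, holds the first of these shares and not the other 3, and the intervals of all 4 groups overlap it. In WT pro-erythroblasts the shares were 5.13% of Hox genes, 70.0% of LIM-homeobox genes, 22.2% of Pax genes and 15.6% of other homeobox genes, beside 28.9% of the 45. No gene of these 4 groups had a Mtf2-null erythroblast peak within 5 kb of a TSS, and 1 of the 77 other homeobox genes had one over its body.

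Clustered genes were compared with single ones, where clustered means that another of the 45 lay within 1 Mb. A WT erythroblast peak was found at 14 of 20 clustered genes (70.0%, 48.1 to 85.5) and at 23 of 25 single genes (92.0%, 75.0 to 97.8), and the intervals overlap. Counting only neighbours of the same family, a choice made after the data were seen, the shares were 66.7% of 18 and 92.6% of 27. The direction turned when only peaks with a score of at least 100 were counted, to 11 of 20 (55.0%) and 12 of 25 (48.0%). Among the genes with a peak, the median of the highest fold per gene was 10.8 in clustered and 9.24 in single genes, and 78.6% and 52.2% had a peak with an FDR of at most 5%.

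The 20 clustered genes formed 9 runs along the chromosomes. In 3 runs every gene was called in WT erythroblasts: Dlx1 with Dlx2, Irx1 with Irx2 and Irx4, and Tlx1 with Pitx3, which are of different families and 979 kb apart. In the other 6 runs exactly 1 gene was missing: Six3 beside Six2, Six6 beside Six4, Dlx3 beside Dlx4, Dlx5 beside Dlx6, Irx6 beside Irx3 and Irx5, and Nkx2-9 beside Nkx2-1. The closest such neighbours were Dlx5 and Dlx6, 9.24 kb apart, where the only WT erythroblast peak of the pair stood at the Dlx6 start. Dlx1 and Dlx2, of like spacing at 9.43 kb, were both covered. Dlx3 and Dlx4, 15.2 kb apart, were split by stage, with the single WT pro-erythroblast peak at Dlx3 and 4 WT erythroblast peaks at Dlx4.

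Base composition around the TSS was alike in called and uncalled genes. In 1 kb around the most upstream TSS, 34 of the 45 genes were CpG island-like (75.6%), meaning at least 50% GC and a CpG count no lower than 0.6 of that expected from the bases, compared with 44.2% of all protein-coding genes. The share was 75.7% of the 37 genes with a WT erythroblast peak and 75.0% of the 8 without. Among all genes with an island-like TSS, 18.2% had a WT erythroblast peak, compared with 28 of 34 homeobox genes (82.4%). Among genes without one the shares were 6.26% of all genes and 9 of 11 homeobox genes (81.8%). Tlx1 and Nkx6-3 had the lowest CpG ratios at the most upstream TSS, 0.140 and 0.274. Only Tlx1 had a peak, within the gene, in the CpG-rich stretch printed for it. Its summit lay 1525 bp upstream of another Tlx1 TSS, around which composition was not read. At the summits, 44 of the 69 WT erythroblast peaks (63.8%) and 7 of the 14 WT pro-erythroblast peaks were island-like, against 65.9% and 18.1% of all peaks of those lists within 5 kb of a TSS. The WT erythroblast share is thus near that background.

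**Figure D4:**
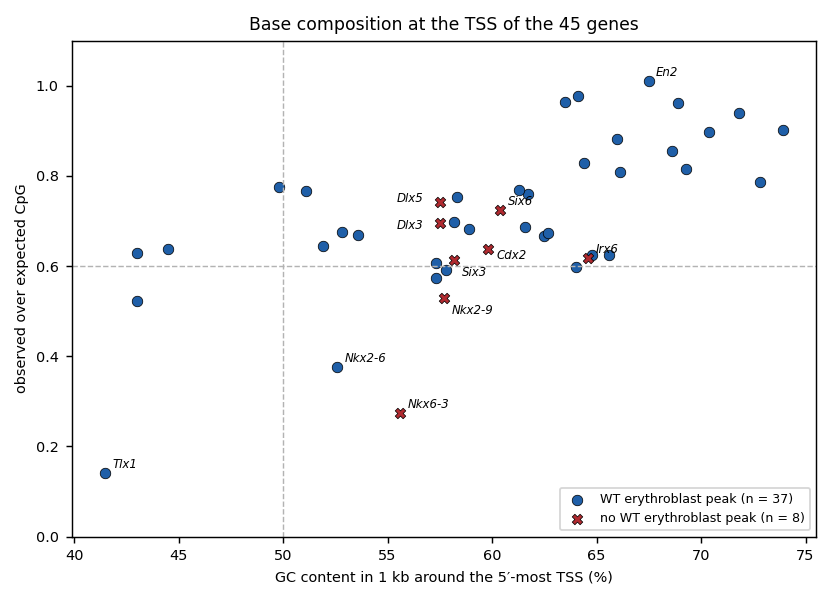
GC content (x axis, %) against the observed over expected CpG ratio (y axis) in 1 kb around the most upstream TSS of each of the 45 genes, with dashed lines at 50% and 0.6. Blue circles are the 37 genes with a WT erythroblast peak and red crosses the 8 without, and the crosses lie among the circles, with 6 of the 8 in the upper right, island-like field.

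Mtf2 peaks lay away from these genes. No peak of either Mtf2 list overlapped a TSS window or the body of any of the 45, while 14.8% of all genes had a pro-erythroblast Mtf2 peak over the body and 4.38% an erythroblast one. The limit for 0 of 45 is 6.67%, above the erythroblast share. A longer body can overlap more peaks, and gene lengths were not matched. Mtf2 summits were rarely CpG island-like anywhere, 2.84% in pro-erythroblasts and 0.471% in erythroblasts. Among all genes with an island-like TSS, 6.85% and 1.36% had a Mtf2 peak near a TSS, against 0 of 34 homeobox genes. The limit for 0 of 34 is 8.82%, above both shares, so these zeros are not set apart from the background. In the erythroblast Mtf2 list 0 of 5309 peaks had an FDR of at most 5%. The nearest pro-erythroblast Mtf2 peak was between 8.52 kb (Nkx3-2) and 358 kb (Nkx2-6) from a TSS with a median of 104 kb, compared with 44.5 kb for all genes and 59.4 kb for all genes with a WT erythroblast peak. For the erythroblast Mtf2 list, which is smaller, the nearest was 21.7 kb away at Nkx2-9, and the median was 420 kb against 216 kb for all genes. Within the runs of clustered genes and 5 kb on either side, 4 of 17 WT pro-erythroblast H3K27me3 peaks (23.5%) were overlapped by a pro-erythroblast Mtf2 peak, against 58.9% of all 4992. All 4 lay between the homeobox genes of a run: 1 between Six6 and Six4 (chr12:74178077-74179256, 37 tags), 1 between Irx3 and Irx5 (chr8:94634204-94635884, 55 tags) and 2 between Irx2 and Irx4 (chr13:73266499-73267770, 49 tags, and chr13:73280075-73281167, 33 tags). Of 46 WT erythroblast H3K27me3 peaks in the same spans 0 were overlapped, near the 1.89% of all 4490. WT H3K27me3 and Mtf2 were called against the same IgG library within a fraction, and the part of that library in the overlap was not tested.

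**Figure D5:**
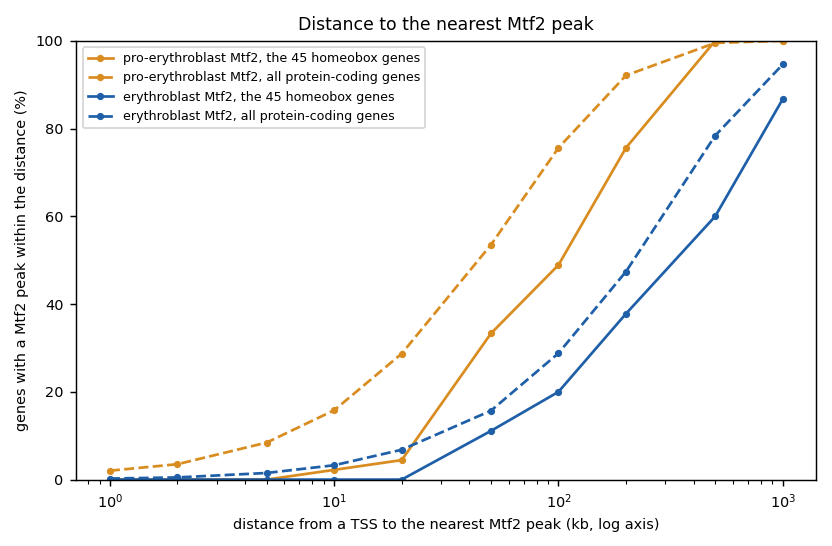
Share of genes (y axis, %) with a Mtf2 peak within a given distance of a TSS (x axis, kb, log scale), for the 45 homeobox genes (solid) and all protein-coding genes (dashed), in pro-erythroblasts (orange) and erythroblasts (blue). Both solid lines run below their dashed line over most of the range, and within 50 kb the pro-erythroblast shares are 33.3% and 53.5%.

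The 8 genes without a WT erythroblast peak were Six3, Six6, Dlx3, Dlx5, Irx6, Nkx2-9, Nkx6-3 and Cdx2. Of these, 5 had no peak near a TSS or over the body in any list: Six3, Dlx5, Irx6, Nkx2-9 and Nkx6-3. Their nearest WT erythroblast peaks were 66.2, 17.5, 309, 77.4 and 60.8 kb away. In the annotation as a whole, 22.8% of genes had a peak near a TSS in any of the 6 lists, compared with 40 of the 45 homeobox genes (88.9%).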

How the data were processed

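Reads were aligned by the authors to mm9 using Bowtie 2 (2.2.3). MACS 1.3.7 then called peaks per ChIP library, with the IgG of the same fraction and genotype as control. Its settings, per the file headers, were a tag size of 25, a p cutoff of 1e-05, a model fold of 32 and a band width of 300. The tag counts deposited by the authors are reads per peak, not scaled for depth. Fold enrichment, as deposited, is a ratio over local IgG background. The score, as deposited, is −10 log10 of p. The FDR, as deposited, is a percent obtained by swapping ChIP and IgG. A deeper library reaches the cutoff at lower enrichment. The methods speak of replicates, and whether these were pooled was not given in the sources used here. The opening line of the series' design text names H3K4me3, while its later lines and every label name H3K27me3, which was used.

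Genes and TSS came from GENCODE M1 on NCBIM37, with 22380 protein-coding genes. A gene was called when at least 1 base of a peak lay within 5 kb of any TSS, and separately over its body. Composition was read in 1 kb around the most upstream TSS or the summit. Shares carry 95% Wilson intervals, and the limit for a count of 0 is 3 counts. No test was run, because each condition had 1 library. The overlap step was tested on simulated peaks and found 4000 of 4000 windows and 200 of 200 planted genes. The members and lists were chosen with earlier results of these data known. Named in full were the member of each family with the highest erythroblast fold, members in both WT lists or in a Mtf2-null or Mtf2 list, and members with no peak. All others, such as Six6, Dlx3, Cdx2 and Nkx2-6, were chosen after their values were seen, and Hox, LIM, Pax and other homeobox genes are given by counts. Python 3.11.15, scipy 1.17.1 and pysam 0.24.0 were used.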

Additional observations from a re-analysis of the deposited data

Results flagged for a closer look

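Dlx2 and Nkx2-5 were picked out because their H3K27me3 calls went in opposite directions in the 2 fractions, and the difference was not tested. In erythroblasts both had a peak near a TSS in WT and none in Mtf2-null cells, while in pro-erythroblasts both had none in WT and 1 in Mtf2-null cells. At Nkx2-5 this rests on the 5 kb window, because a WT pro-erythroblast peak lay 6.10 kb from its TSS. The Mtf2-null pro-erythroblast peak was 5.47-fold over IgG at Dlx2 and 8.2-fold at Nkx2-5. Both had an FDR of 100%, and the Mtf2-null library was 1.95 times as deep as the WT library of that fraction. Across all protein-coding genes, 71 (0.317%) showed the same pattern.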

How the results depend on the processing

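In all, 72 alternatives were run over 10 counts, and 49 stayed within 1.5 times the value reported. Counting only peaks that reached a score of 100, only those with FDR up to 5%, or only the 1400 highest scores per list gave, under each of the 3, 23 genes with a WT erythroblast peak, 23 of these without a Mtf2-null one, 12 single genes and 22 genes with a peak over the body. Of all genes, 5.54%, 5.48% and 5.81% had a WT erythroblast peak near a TSS under these limits. Over the body the shares of all genes were 5.15%, 5.11% and 5.42%. Under each of the 3, 0 genes kept a WT pro-erythroblast peak, and 0.121%, 0.00447% and 0.813% of all genes did. Mtf2-null pro-erythroblast peaks fell to 0 under the score and FDR limits (0.00447% and 0% of all genes), while the highest scores kept 2 (4.44%, against 1.26%). A window of 1 kb gave 5 genes in WT pro-erythroblasts (11.1%, against 1.31% of all genes). It gave 1 (Nkx2-5) in Mtf2-null pro-erythroblasts (2.22%, against 0.344%). A window of 10 kb gave 14 genes in WT pro-erythroblasts, with Nkx2-5 now among them (31.1%, against 5.21% of all genes). It gave 1 gene in Mtf2-null erythroblasts (Otx2, 2.22%, against 3.75% of all genes). In the pro-erythroblast Mtf2 list it gave 1 (Nkx3-2, 2.22%, against 15.8%). Taking clusters within 100 kb gave 6 of 10 clustered genes (60.0%), against 31 of 35 single genes (88.6%). Leaving out the part of the body within 5 kb of a TSS gave 1 gene with a WT erythroblast peak (2.22%), near the 2.71% of all genes. Each change follows from fewer peaks, a narrower or wider window, or fewer genes counted. The share of clustered genes was below that of single genes, except under the score, FDR and highest-score limits, where it was 55.0% against 48.0%. No paired analysis was possible because each condition had 1 library, and no replicate could be left out. All 14 WT pro-erythroblast peaks at these genes lay within 6 tags of the fewest in that list, and the part of depth was not tested.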
